A study of Mus musculus with 8 samples.

Results

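The genes described here are 10 mouse genes whose human counterparts are named in Alzheimer's disease (AD) risk loci or in the receptor pathway around them, namely Trem2, Tyrobp, Plcg2, Inpp5d, Cd33, Spi1, Abi3, Bin1, Picalm and Cd2ap. They were chosen by name, as rows of the deposited gene tables, and are 10 of the 32285 genes measured. All 10 were found. Their levels were read in each annotated cell class, in each microglial subpopulation and in each library.

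The study prepared nuclei from frozen brain hemispheres of 6-month-old C57BL6/J mice and sequenced them with the 10x Chromium 3' protocol, in which each captured RNA molecule carries a unique molecular identifier (UMI). Wild-type (WT) mice, mice with a constitutive null allele of Cnp (Cnp-/-), 5xFAD mice and Cnp-/- 5xFAD mice gave 2 libraries each, 8 in all. CNP is an enzyme of the non-compact myelin of oligodendrocytes, and mice without it have structurally altered myelin. 5xFAD mice carry human transgenes with familial Alzheimer mutations, driven by the neuronal Thy1 promoter, and deposit amyloid. The design asks whether defective myelin changes the response of brain cells to amyloid. The null allele acted in every cell of the body, so an effect in microglia cannot be assigned to loss of Cnp from oligodendrocytes or from other cells. The labels number the 2 libraries of a genotype without naming animals. The study's reporting summary says that animals were pooled for each replicate in its single-cell work, which its methods repeat for another of its datasets and not for these hemispheres, so p-values measure the spread between these libraries.

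TREM2 is a lipid-sensing receptor of microglia, the resident phagocytes of the brain. It signals through TYROBP (DAP12), whose phosphorylated tail recruits the kinase SYK and, further down, the phospholipase PLCG2. INPP5D (SHIP1) is a lipid phosphatase that limits this signal, and human CD33 is a sialic acid binding receptor that inhibits it. SPI1 (PU.1) is the transcription factor that specifies myeloid cells and binds purine-rich GGAA sites. ABI3 belongs to actin-regulating complexes. BIN1 shapes membranes, PICALM assembles clathrin coats and CD2AP links membrane receptors to actin, and all of these act in endocytosis in many cell types.

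The main count table, of every cell type, comprised 61949 nuclei and 606793807 UMIs, with a median of 6811 UMIs per nucleus. The table of microglia held 2291 nuclei and 3707419 UMIs, with a median of 1327. Of 61494 distinct barcode sequences, 454 occurred in more than 1 library, and 0 did so within the microglia table. Each of 9 marker lists had its highest summed level in its own class, except that the macrophage list was highest in the microglia class, under which macrophages were filed. Cnp in mature oligodendrocytes was 283 and 321 counts per 1000000 UMIs (CPM) in WT, 219 and 265 in 5xFAD, 23.2 and 23.2 in Cnp-/-, and 24.0 and 32.8 in Cnp-/- 5xFAD. The libraries thus matched their labels for the Cnp allele, which does not check the 5xFAD transgenes, with a log2 fold change of -3.32 (SE 0.166, edgeR quasi-likelihood test, adjusted p = 0.000702).

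Because Spi1 is among the genes, the sequence before the start sites was searched for its core motif. RefSeq (GRCm38.p6) gave a promoter for 6 of the 10 genes, and Inpp5d, Trem2, Cd33 and Picalm are printed because their windows hold GAGGAA. Each line is the 250 bases before the RefSeq start site, 5' to 3' on the strand of the gene, with the motif or its complement in capitals. Inpp5d lies at chr1:87620062-87620311 (+ strand), Trem2 at chr17:48346151-48346400 (+ strand), Cd33 at chr7:43533172-43533421 (- strand) and Picalm at chr7:90129963-90130212 (+ strand).
Inpp5d: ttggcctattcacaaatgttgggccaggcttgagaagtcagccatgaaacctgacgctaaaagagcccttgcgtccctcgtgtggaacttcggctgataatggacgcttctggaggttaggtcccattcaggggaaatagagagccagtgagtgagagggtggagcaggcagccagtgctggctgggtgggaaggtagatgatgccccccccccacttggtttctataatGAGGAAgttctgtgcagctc
Trem2: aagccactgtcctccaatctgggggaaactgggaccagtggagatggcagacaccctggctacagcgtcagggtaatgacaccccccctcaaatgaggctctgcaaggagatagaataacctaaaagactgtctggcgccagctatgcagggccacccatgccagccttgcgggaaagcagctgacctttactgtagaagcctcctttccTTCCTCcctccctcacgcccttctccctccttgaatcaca
Cd33: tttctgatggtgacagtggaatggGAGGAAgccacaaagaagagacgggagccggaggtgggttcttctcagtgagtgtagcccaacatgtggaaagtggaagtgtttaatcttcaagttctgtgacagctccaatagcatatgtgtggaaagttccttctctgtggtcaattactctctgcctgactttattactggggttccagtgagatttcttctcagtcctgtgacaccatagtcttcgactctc
Picalm: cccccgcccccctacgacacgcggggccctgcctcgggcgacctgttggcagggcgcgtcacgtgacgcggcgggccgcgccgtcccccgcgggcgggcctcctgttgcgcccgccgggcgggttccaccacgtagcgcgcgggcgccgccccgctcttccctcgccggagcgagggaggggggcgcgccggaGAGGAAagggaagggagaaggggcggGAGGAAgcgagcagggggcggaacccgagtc

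The motif GAGGAA, searched on both strands of 300 bases around the start site, was present in 4 of the 6 promoters, against 28.3% of all 32851 mouse promoters in the same table. The longer form GAGGAAGT, which contains the shorter one, was present in 1 of the 6 and in 3.20% of all promoters. In Inpp5d the longer form spanned positions -20 to -15 by its first 6 bases, counted from the start site, and a second core match on the opposite strand spanned 4 to 9, beyond the printed window. In Trem2 the match was on the opposite strand at -40 to -35. In Cd33 it spanned -226 to -221, in a window that lies inside the GENCODE gene model because RefSeq places the start further downstream. Picalm held matches at -57 to -52 and at -31 to -26, although it was not restricted to microglia as shown later. No match was found in the windows of Plcg2 and Cd2ap. A match describes letters and not binding.

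The 10 genes fell into a group of 7 that were concentrated in microglia and a group of 3 that were measured widely. Classes had been assigned by clustering the same counts, so the levels are a description without a test. Of the 10 genes, 8 had their highest mean in microglia. The exceptions were Bin1, which was highest in mature oligodendrocytes, and Cd2ap, which was highest in endothelial cells.

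Trem2 averaged 159 ± 42.3 CPM in microglia (SD, n = 8 libraries) and Tyrobp averaged 107 ± 34.8 CPM. Plcg2 stood at 317 ± 38.3 CPM there, and the phosphatase gene Inpp5d at 1767 ± 248 CPM. The receptor gene Cd33 stood at 165 ± 32.2 CPM, Spi1 at 247 ± 36.5 CPM and Abi3 at 248 ± 42.5 CPM. Microglia held 0.755% of all UMIs, and each of the 7 genes had between 38.9% and 57.9% of its UMIs there. For every one of them the microglial libraries lay above all libraries of every other class. CPM from 3' counting do not allow one gene's level to be set against another's.

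The class that came next was newly formed oligodendrocytes, where Inpp5d averaged 116 ± 60.3 CPM and Plcg2 26.6 ± 16.6 CPM. The 7 genes were 11.9-fold to 19.5-fold lower there than in microglia. The summed level of 5 microglial markers (Cx3cr1, P2ry12, Csf1r, Tmem119 and Siglech) was 12.2-fold lower there, so the markers moved with the members, and the part of microglial RNA in these values was not tested. In neurons the 7 genes were 93.7-fold to 214-fold lower and the marker sum 42.8-fold lower. That sum, of 62.4 CPM in neurons, rested mainly on P2ry12 at 42.3 CPM. Cx3cr1 stood at 11.2 CPM there, Csf1r at 5.08, Siglech at 3.45 and Tmem119 at 0.38. In mature oligodendrocytes the genes were 139-fold to 848-fold lower and the markers 191-fold lower.

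In endothelial cells Inpp5d averaged 75.3 ± 15.7 CPM and ranged from 46.6 to 90.9 CPM over the 8 libraries. Plcg2 averaged 20.0 ± 4.69 CPM. The fold between microglia and endothelial cells ran from 15.8 to 147 over the 7 genes, beside 66.9 for the marker sum. In pericytes, with 379568 UMIs in the 7 libraries of at least 20 nuclei, Trem2 and Cd33 had no UMI, which allows a level of up to 7.90 CPM. These genes were named for pericytes after their values were seen.

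Bin1 stood at 1191 ± 112 CPM in mature oligodendrocytes and at 762 ± 74.5 CPM in microglia (SD, n = 8), a 1.56-fold difference in means with no overlap between the libraries. Newly formed oligodendrocytes followed at 372 ± 84.6 CPM, then neurons at 152 ± 10.3 CPM and oligodendrocyte precursor cells at 98.9 ± 21.6 CPM. Each of these classes was separated from the one above it by library ranges that did not overlap. Below them, precursor cells, pericytes (55.2 CPM), endothelial cells (48.3 CPM) and astrocytes (25.8 CPM) were neighbours whose ranges overlapped. The microglial class mixes the subpopulations described below. In homeostatic microglia alone, Bin1 averaged 1025 CPM and ranged from 848 to 1134 CPM. That range overlaps the mature oligodendrocyte libraries, at 1049 to 1371 CPM.

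Picalm was spread over all classes. Its mean was 809 ± 158 CPM in microglia and 530 ± 35.8 CPM in mature oligodendrocytes, and every microglial library exceeded every oligodendrocyte library. Pericytes (321 ± 79.8 CPM, n = 7), endothelial cells (301 ± 20.6 CPM) and newly formed oligodendrocytes (236 ± 41.0 CPM) came next, each overlapping its neighbour. Precursor cells, astrocytes and neurons were lowest, at 144, 119 and 93.8 CPM, and also overlapped in turn.

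Cd2ap was highest in endothelial cells, at 465 ± 41.8 CPM, with every library above the microglial libraries at 312 ± 40.9 CPM. The remaining classes lay close together, from 201 ± 24.8 CPM in mature oligodendrocytes down to 125 ± 10.2 CPM in neurons. The microglial class also holds macrophages and further subpopulations described below. In its homeostatic microglia alone, Cd2ap averaged 410 CPM and ranged from 283 to 582 CPM. That range overlaps the endothelial libraries, at 418 to 520 CPM. Although none of the 3 endocytic genes was highest in neurons, neurons held 92.6% of all UMIs and with them 83.4% of the UMIs of Bin1, 78.8% of those of Picalm and 86.6% of those of Cd2ap.

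**Figure D1:**
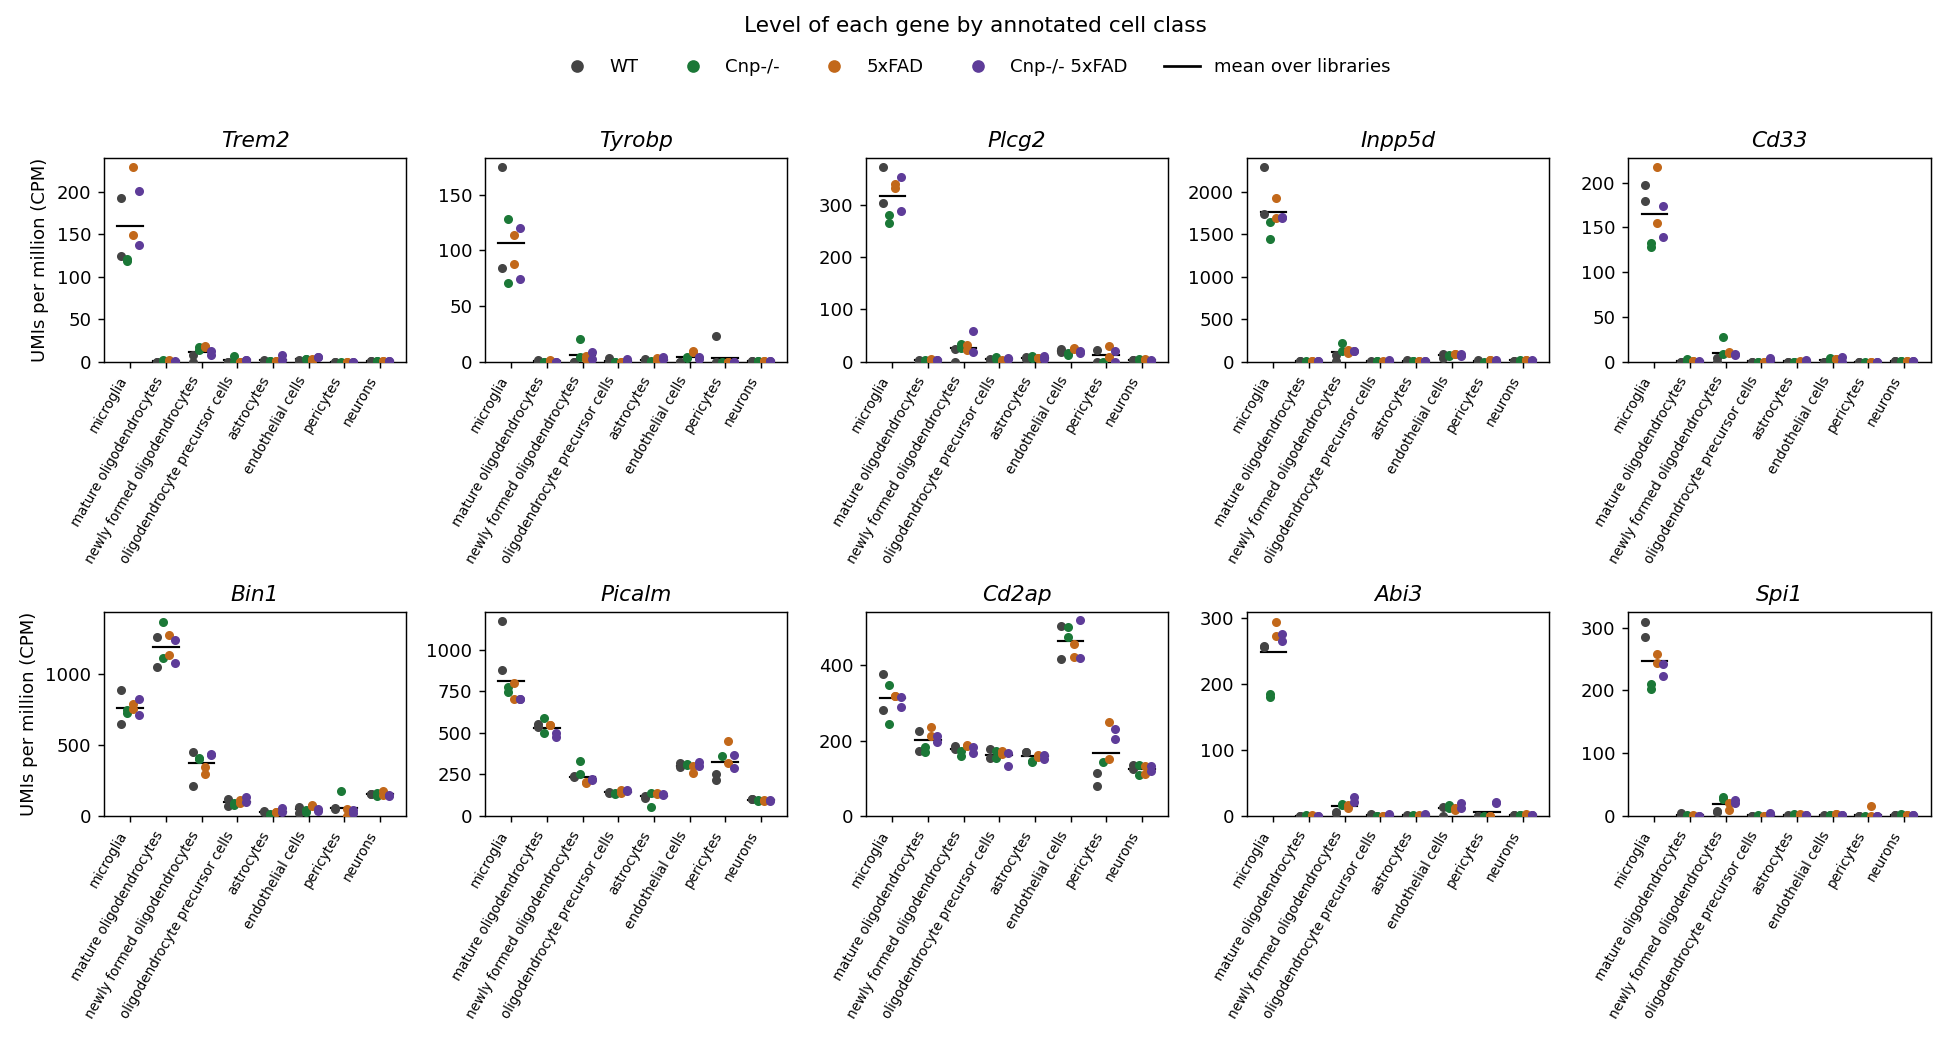
Level of each of the 10 genes, in CPM of summed UMIs on a linear axis from 0, in the 8 annotated cell classes, with 1 point for each library of at least 20 nuclei coloured by genotype and a bar for the mean over libraries. Trem2, Tyrobp, Plcg2, Inpp5d, Cd33, Abi3 and Spi1 exceed 100 CPM in microglia alone except for Inpp5d in newly formed oligodendrocytes, whereas Bin1 peaks in mature oligodendrocytes, Cd2ap in endothelial cells, and Picalm is present in all classes.

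The genes with the most similar level across the 8 classes were found by Pearson correlation of log2(CPM + 1) among 12040 genes with at least 20 CPM in a class. These are correlations over 8 class means from the same libraries, and several neighbours changed places when 1 pericyte library of 19 nuclei was counted. Trem2 was closest to Rhoh, Arhgap30 and Lilrb4a (r from 0.992 to 0.994), and Cd33 to Was, Lilrb4a and Tnfsf8 (r = 0.998 for each). Tyrobp and Plcg2 were each other's nearest gene (r = 0.993), followed by C1qc and Mrc1 for Tyrobp and by Slc7a7 and Mrc1 for Plcg2. Inpp5d was closest to Arhgap45, Abi3 and Stab1, Abi3 to Rgs10, Runx1 and Gm5086, and Spi1 to Gpr183, Nlrp1b and Cx3cr1 (r from 0.980 to 0.997 over these 3 genes). The widely measured genes had other neighbours. Bin1 was nearest to Snx30, Arsg and Prag1, Picalm to Gxylt1, Cept1 and Sf3a3, and Cd2ap to Cope, Maf1 and Dhx38, with r from 0.967 to 0.987.

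The deposited annotation divides the microglia table into homeostatic microglia, disease-associated microglia (DAM) linked to amyloid, DAM linked to myelin, MyTE, whose nuclei are rich in myelin transcripts, and macrophages. DAM are activated microglia known for their dependence on TREM2. These groups too came from the same counts, so levels were compared as a description, within libraries that held at least 20 nuclei of both groups. The homeostatic share was 92.3% and 94.1% in the WT libraries, 40.5% and 51.2% in Cnp-/-, 45.7% and 47.8% in 5xFAD, and 32.4% and 39.0% in Cnp-/- 5xFAD. The widest 95% Wilson interval was 42.5% to 59.8%, for the Cnp-/- library with 125 nuclei, and these intervals cover counting error only. The sum over all microglia therefore mixed the subpopulations in different shares in each genotype.

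Most of the genes were lower in DAM than in homeostatic microglia, and Trem2 and Tyrobp were the exceptions. Inpp5d averaged 2920 ± 282 CPM in homeostatic microglia (n = 8), 2129 ± 213 CPM in amyloid-DAM (n = 4) and 2011 ± 346 CPM in myelin-DAM (n = 4). Within libraries it was lower in 4 of 4 for amyloid-DAM and in 4 of 4 for myelin-DAM. Bin1 stood at 1025 ± 91.5 CPM in homeostatic microglia, at 668 ± 46.6 CPM in amyloid-DAM and at 622 ± 104 CPM in myelin-DAM, and Picalm at 1154 ± 273, 779 ± 66.2 and 687 ± 143 CPM. For Bin1 and Picalm too, each of the 4 libraries showed the lower level in each DAM group. The homeostatic means cover all 8 libraries, whereas the DAM means cover 4. In the 4 libraries that gave amyloid-DAM, homeostatic Picalm averaged 971 CPM. Its median log2 ratio within libraries was -0.28 in amyloid-DAM and -0.71 in myelin-DAM. For Bin1 these were -0.66 and -0.62, and for Inpp5d -0.36 and -0.59.

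Cd33 averaged 277 ± 45.6 CPM in homeostatic microglia and 161 ± 68.4 CPM in amyloid-DAM, and its log2 ratio within libraries ran from -1.67 to -0.36. In myelin-DAM the ratio ran from -1.70 to 0.15, and 1 of 4 libraries was higher. Trem2 went the other way, at 213 ± 54.3 CPM in homeostatic microglia and 274 ± 67.8 CPM in amyloid-DAM, with log2 ratios from 0.15 to 0.48 in the 4 libraries. The study listed Trem2 among the marker genes it gave for both DAM groups, so this level is not independent of the label. In myelin-DAM Trem2 was higher in 2 of 4 libraries and lower in the other 2. Tyrobp was higher in 3 of 4 libraries in each DAM group, with ratios from -0.59 to 0.85 in amyloid-DAM, so its libraries were split. The libraries of other genes were split too. Plcg2 and Cd2ap were lower in 3 of 4 libraries in each DAM group. Abi3 was lower in 3 of 4 for amyloid-DAM and 4 of 4 for myelin-DAM. Spi1 was lower in 4 of 4 for amyloid-DAM and 3 of 4 for myelin-DAM.

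Of the 10 genes, 8 were lower in pooled amyloid-DAM than in pooled homeostatic microglia of the same libraries, with a median log2 ratio of -0.30, whereas 49.7% of 6527 genes were lower and their median was 0.0023. In myelin-DAM 8 were lower with a median of -0.50, beside 50.7% of 6430 genes. These counts describe a list of 10 genes chosen by name.

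MyTE stood apart in its oligodendrocyte signal. All 10 genes were lower in pooled MyTE than in homeostatic microglia, with a median log2 ratio of -1.34, and 70.5% of 6517 genes were lower, with a median of -0.38. The ratio was -1.49 for Inpp5d, -1.66 for Abi3 and -1.33 for Trem2, but -0.054 for Bin1. Bin1 averaged 1036 ± 113 CPM in MyTE (n = 6) and was lower than in homeostatic microglia in 3 of 6 libraries. The summed level of 6 markers of mature oligodendrocytes was 6990 to 9576 CPM in MyTE, 0 to 210 CPM in homeostatic microglia and 12861 to 16579 CPM in mature oligodendrocytes, the class where Bin1 is highest. Its part in the MyTE values was not tested.

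Macrophages carried little Abi3, at 59.0 ± 34.8 CPM against 435 ± 54.5 CPM in homeostatic microglia, a log2 ratio from -4.41 to -1.88 over 5 libraries. These macrophage values of Abi3 rest on 1 to 15 UMIs per library, and the lowest ratio on 1 UMI. Bin1 was at 391 ± 115 CPM and Inpp5d at 1330 ± 234 CPM in macrophages, both lower in 5 of 5 libraries. Spi1 (313 ± 135 CPM) and Cd33 (208 ± 70.6 CPM) were higher than in homeostatic microglia in 1 of 5 libraries each.

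**Figure D2:**
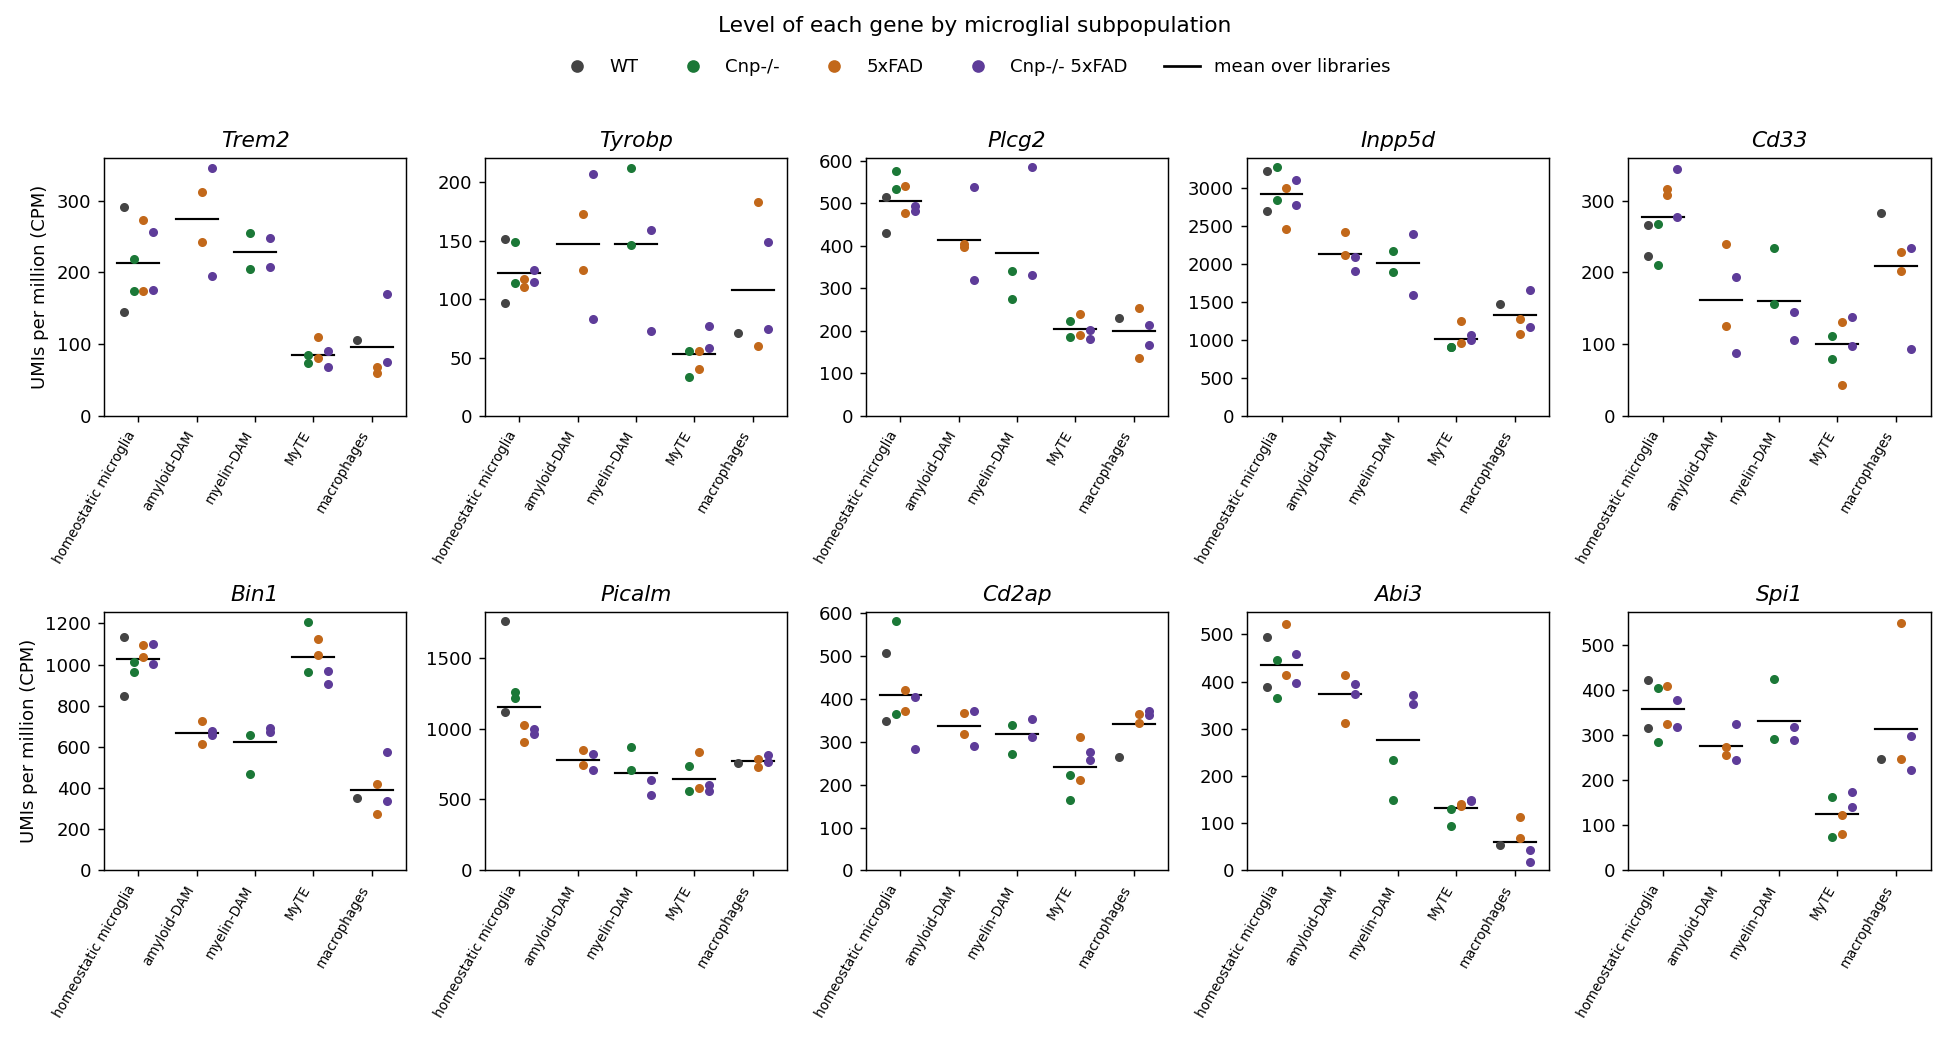
Level of each gene, in CPM on a linear axis from 0, in homeostatic microglia, amyloid-DAM, myelin-DAM, MyTE and macrophages, with 1 point for each library of at least 20 nuclei coloured by genotype and a bar for the mean. Inpp5d and Picalm step down from homeostatic microglia to both DAM groups and Cd33 to amyloid-DAM, Trem2 is highest in amyloid-DAM, and Bin1 returns to 1036 CPM in MyTE.

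A further 181 nuclei were labelled microglia in the table of all cell types and were absent from the microglia table, with a median of 3880 UMIs. The 10 genes stood at 37.7 CPM (Tyrobp) to 579 CPM (Inpp5d) in these nuclei. Microglial markers summed to 878 CPM, and markers of mature oligodendrocytes, astrocytes and pericytes to 3180, 1212 and 989 CPM. These nuclei count towards the microglial class levels given above and not towards the tests that follow.

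Genotype effects were tested on UMIs summed per library, with the library as the replicate. The 5xFAD effect is the mean of the 4 libraries with the transgenes minus the mean of the 4 without, and the Cnp loss effect is the mean of the 4 null libraries minus the mean of the 4 others, both on the log2 scale. None of the 10 genes passed an adjusted p of 0.05 in edgeR's quasi-likelihood test in any of 18 comparisons. In all microglia without macrophages, 0.428% of 8185 genes passed for the 5xFAD effect and 1.55% for the Cnp loss effect. All 10 genes were tested in each. At an unadjusted p under 0.05 stood 1 of the 10 for 5xFAD (Picalm) and 3 for Cnp loss (Inpp5d, Picalm and Abi3), beside 10.2% and 13.1% of all genes tested. DESeq2 called 1 (Picalm) and 0 of the 10, beside 1.54% and 2.9% of the genes to which it gave an adjusted p. The count of 1 at an unadjusted p for 5xFAD equals the share over all genes.

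Neither gene of the receptor pair passed the test. Trem2 in all microglia was 156 and 260 CPM in WT, 153 and 175 CPM in Cnp-/-, 178 and 255 CPM in 5xFAD, and 158 and 234 CPM in Cnp-/- 5xFAD. Both Cnp-/- libraries lay below both 5xFAD libraries, and every other pair of genotypes overlapped. The log2 fold change of Trem2 was 0.20 for 5xFAD (95% interval -0.30 to 0.70, adjusted p = 0.876) and -0.17 for Cnp loss (-0.67 to 0.33, adjusted p = 0.834). With equal nuclei per library both changed sign, to -0.12 and 0.28.

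Tyrobp was 94.2 and 147 CPM in WT, 91.97 and 138 CPM in Cnp-/-, 105 and 120 CPM in 5xFAD, and 85.4 and 136 CPM in Cnp-/- 5xFAD. These values rest on 13 to 73 UMIs per library, and the ranges of the 4 genotypes overlapped. Its log2 fold changes were -0.025 for 5xFAD (-0.61 to 0.56) and -0.00039 for Cnp loss (-0.59 to 0.59). Effects of either sign within these intervals cannot be told from 0 with these libraries. Cnp-/- 5xFAD against 5xFAD, the contrast that asks for an effect of Cnp loss where amyloid is present, gave -0.13 for Trem2 (-0.76 to 0.50) and -0.019 for Tyrobp (-0.76 to 0.72). Over the alternatives Trem2 ran from -0.43 to 0.41 in this contrast and Tyrobp from -0.43 to 0.29. None of the 10 genes passed in this contrast by edgeR or DESeq2, and 0 stood at an unadjusted p under 0.05. Of all genes 0% of 8185 passed by edgeR and 0.121% of 5804 by DESeq2.

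Picalm had the largest 5xFAD effect of the 10 genes in size in all microglia. It was 1037 and 1642 CPM in WT, 889 and 913 CPM in Cnp-/-, 907 and 768 CPM in 5xFAD, and 767 and 731 CPM in Cnp-/- 5xFAD. The second WT library stood far above the others. It was also the shallowest, with 51 nuclei and 145 UMIs of Picalm. The first 5xFAD library lay among the Cnp-/- libraries. The log2 fold change was -0.45 for 5xFAD (SE 0.133, interval -0.75 to -0.15, unadjusted p = 0.00707, adjusted p = 0.244). DESeq2 gave an adjusted p of 0.0407, and the adjusted p ranged from 0.0407 to 0.589 over 16 alternatives.

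In homeostatic microglia the 2 sets of libraries did not overlap for Picalm. Its level was 1120 and 1759 CPM in WT and 1256 and 1214 CPM in Cnp-/-, against 1025 and 905 CPM in 5xFAD and 997 and 959 CPM in Cnp-/- 5xFAD. The fold change was -0.44 (interval -0.75 to -0.13, adjusted p = 0.562) and did not pass the threshold. It ran from -0.59 without the first WT library to -0.26 without the second, and in all microglia from -0.58 to -0.29 without the same libraries. Every alternative kept the sign in both sets. In homeostatic microglia 0.0657% of 4566 genes passed for 5xFAD and 0.11% for Cnp loss.

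Cd33 in homeostatic microglia also had no overlap, in the opposite direction. Picalm and Cd33 were 2 of the 10 genes without overlap, beside 3.55% of all 4566 genes tested there, and neither passed the test. Cd33 was 223 and 266 CPM in WT and 268 and 211 CPM in Cnp-/-, against 316 and 307 CPM in 5xFAD and 278 and 344 CPM in Cnp-/- 5xFAD. These rest on 17 to 78 UMIs per library, and the fold change was 0.37 (SE 0.178, interval -0.03 to 0.76, adjusted p = 0.868). In all microglia, where 5xFAD libraries also held amyloid-DAM, Cd33 was 197 and 238 CPM in WT, 151 and 180 CPM in Cnp-/-, 173 and 244 CPM in 5xFAD, and 157 and 201 CPM in Cnp-/- 5xFAD. There the fold change was 0.04 (-0.38 to 0.46).

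For Cnp loss the 10 genes in all microglia had fold changes from -0.38 to -0.00039 with a median of -0.17, and the median over all genes was 0.024. In homeostatic microglia 6 of the 10 were below 0 and all lay between -0.11 and 0.10. Inpp5d was 2946 and 2605 CPM in WT, 1988 and 2006 CPM in Cnp-/-, 2349 and 1988 CPM in 5xFAD, and 1901 and 2075 CPM in Cnp-/- 5xFAD. WT was above the other 3 genotypes, which overlapped. Its fold change was -0.27 for Cnp loss (SE 0.0923, interval -0.48 to -0.07, adjusted p = 0.215) and -0.18 for 5xFAD (-0.39 to 0.02), and within homeostatic microglia Cnp loss gave 0.08 (-0.13 to 0.29). Over the alternatives it ran from -0.33 to -0.13 for Cnp loss, the latter without MyTE, and from -0.23 to -0.03 for 5xFAD, the latter with the microglia label of the table of all cell types.

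Abi3 was the gene with the largest Cnp loss effect in size among the 10 in the main fit of all microglia. It was 361 and 453 CPM in WT, 345 and 350 CPM in 5xFAD, 222 and 260 CPM in Cnp-/-, and 323 and 333 CPM in Cnp-/- 5xFAD. The Cnp-/- libraries were lowest and those with both alleles lay just under the 5xFAD libraries. The fold change for Cnp loss was -0.38 (SE 0.129, interval -0.67 to -0.09, unadjusted p = 0.0143, adjusted p = 0.217), against -0.11 (-0.46 to 0.25) in homeostatic microglia. Picalm reached -0.57 for Cnp loss with equal nuclei per library, and Abi3 ran from -0.53 to -0.25 over the alternatives in all microglia. The interaction, the 5xFAD effect with the null allele minus that without it, was 0.62 (interval 0.04 to 1.19, unadjusted p = 0.0379, adjusted p = 0.524). In the interaction 0.0489% of genes passed. Abi3 lies on chromosome 11, 4.73 Mb from the targeted Cnp gene, so an effect of the null allele and of linked sequence inherited with it cannot be told apart. Its gene model (95830074 to 95842476, - strand, mm10) overlaps Zfp652, Phospho1 and Gngt2 on the other strand, and the strand setting of the counting is not given in the sources used here. Bin1 and Plcg2 likewise overlap A830052D11Rik and Gm27361 on the other strand, and Picalm overlaps 4 predicted genes on its own, so reads of these pairs may be shared.

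For the remaining 4 genes every interval included 0 in all microglia. Plcg2 ranged from 324 to 475 CPM over the 8 libraries, Bin1 from 812 to 1143 CPM, Cd2ap from 257 to 476 CPM and Spi1 from 250 to 373 CPM. Their 5xFAD fold changes in all microglia were -0.07, -0.13, -0.11 and -0.17 in that order, and their Cnp loss fold changes -0.14, -0.11, -0.17 and -0.14. Picalm for Cnp loss stood at -0.32 (interval -0.61 to -0.02, adjusted p = 0.342), and ran from -0.57 with equal nuclei per library to -0.16 without the second WT library. Without the second WT library, the highest for Picalm, none of the 10 passed in any comparison.

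Markers of other cells moved with genotype in the same libraries. In all microglia the 6 oligodendrocyte markers summed to 1295 and 1053 CPM in WT, 4079 and 2160 CPM in Cnp-/-, 1888 and 1884 CPM in 5xFAD, and 2039 and 2542 CPM in Cnp-/- 5xFAD. The 6 macrophage markers ranged from 0 to 180 CPM and the 6 neuronal markers from 0 to 11.8 CPM. The astrocyte markers summed to 273 and 296 CPM in 5xFAD, below the 332 to 599.6 CPM of the other genotypes. The 5 microglial markers summed to 4769.5 and 4587 CPM in WT and to 2551 to 3253 CPM in the other genotypes, so WT was highest, as it was for Inpp5d. In homeostatic microglia the oligodendrocyte sum was 0 to 210 CPM and the microglial sum 4118 to 5192 CPM. The astrocyte sum there was 354 to 508 CPM without the 5xFAD transgenes and 307 to 405 CPM with them. The part of these markers in the members' values was not tested.

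**Figure D3:**
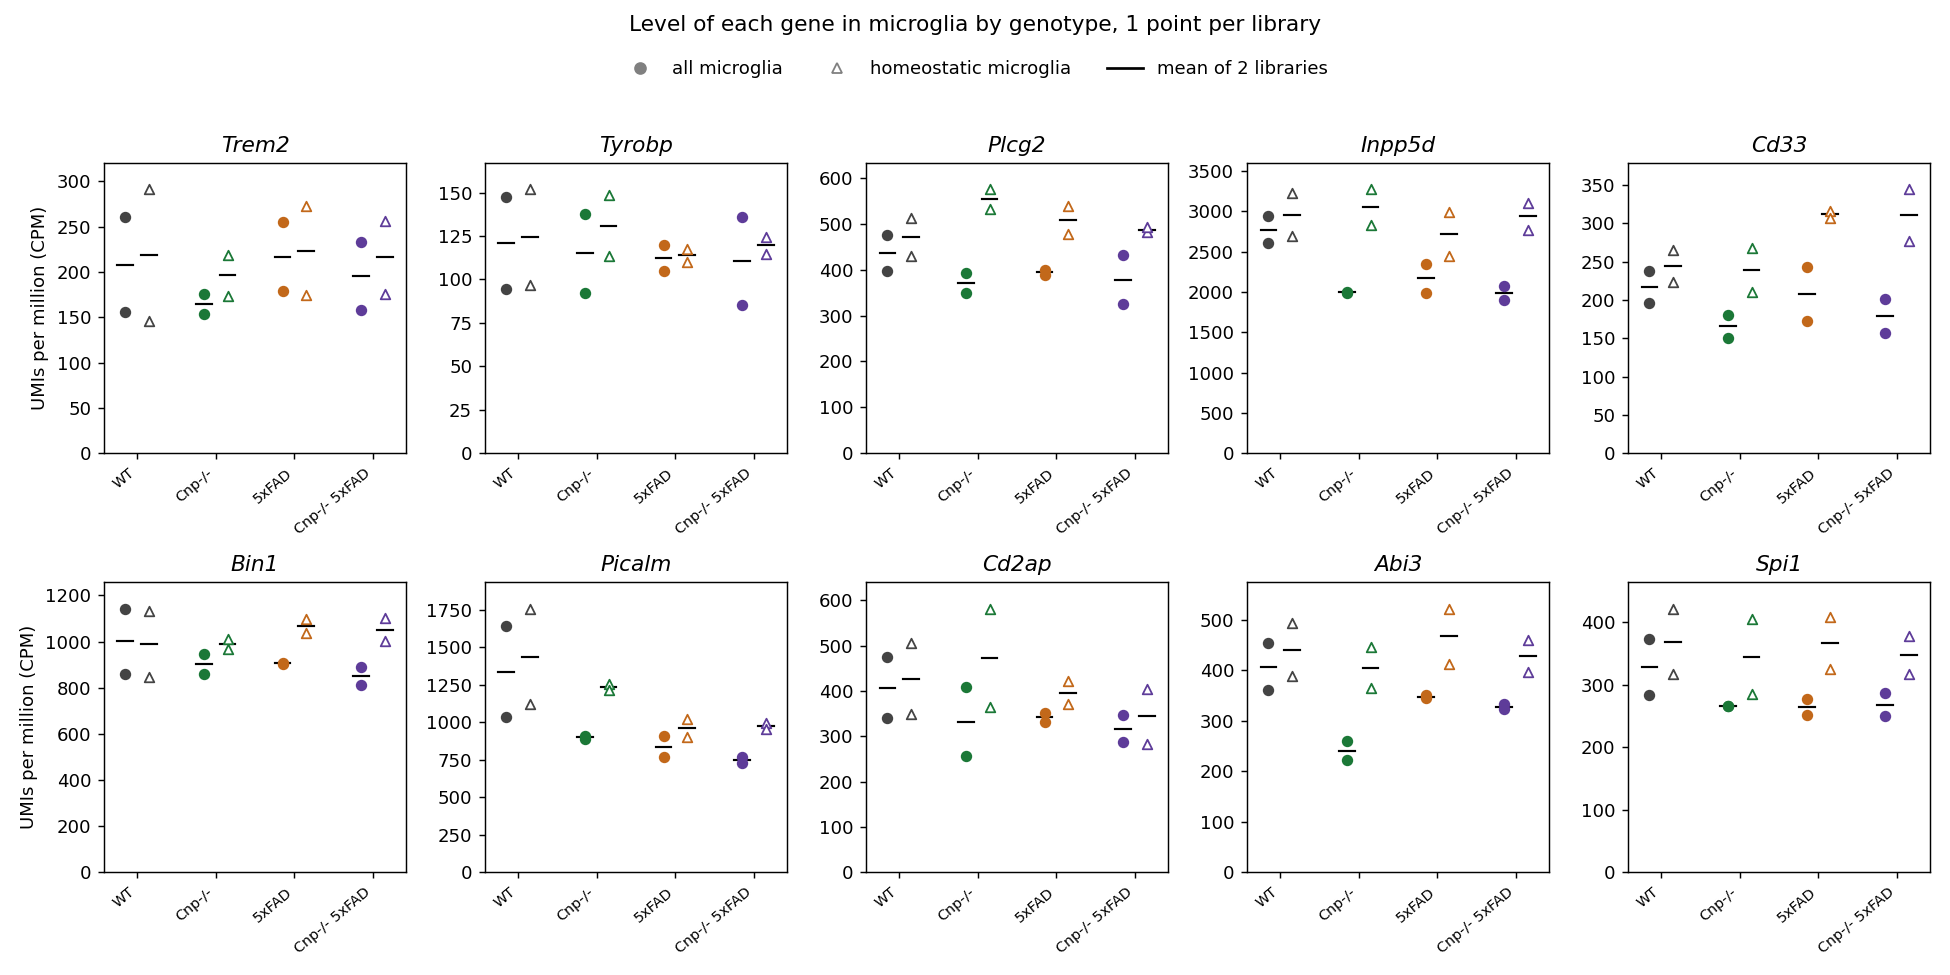
Level of each gene, in CPM on a linear axis from 0, in all microglia and in homeostatic microglia of each genotype, with 1 point for each of the 8 libraries. In homeostatic microglia the 4 libraries with the 5xFAD transgenes lie below the others for Picalm (905 to 1025 against 1120 to 1759 CPM) and above them for Cd33 (278 to 344 against 211 to 268 CPM), and neither difference passed the threshold.

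Within a DAM group the genotypes could be compared where both held nuclei. The fit held 8 profiles from 6 libraries, since each Cnp-/- 5xFAD library gave both an amyloid-DAM and a myelin-DAM profile, so the estimate of the spread does not rest on 8 independent samples. Deviations of same-numbered profiles correlated at up to 0.46 there. In amyloid-DAM, Cnp-/- 5xFAD against 5xFAD gave fold changes from -0.41 to 0.09 over the 10 genes, and 0% of 3919 genes passed by edgeR. In myelin-DAM, Cnp-/- 5xFAD against Cnp-/- gave -0.66 to 0.83, and 0% of genes passed by edgeR. The highest of these was Abi3, at 234 and 148 CPM in Cnp-/- (24 and 7 UMIs) and 352 and 372 CPM in Cnp-/- 5xFAD (34 and 21 UMIs). The groups did not overlap, and the fold change of 0.83 had an unadjusted p of 0.0244 and an adjusted p of 0.746. Without the first Cnp-/- library it was 1.29, with an adjusted p of 0.409, where the Cnp-/- arm is a single library of 7 UMIs assumed to vary like the others. Picalm was 711 and 870 CPM in Cnp-/- myelin-DAM and 528 and 638 CPM in that of Cnp-/- 5xFAD, also without overlap and not past the threshold. In this comparison of 2 against 2 libraries, 4 of the 10 genes did not overlap, beside 33.1% of all genes tested.

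Outside microglia, low counts limited which genes could be tested. The filter on low counts kept 3 of the 10 genes in mature oligodendrocytes and in precursor cells, 5 in astrocytes, 6 in endothelial cells and 10 in neurons, and 0 passed in each by edgeR. Bin1 in astrocytes and Tyrobp in neurons stood at an unadjusted p under 0.05, both for 5xFAD, beside 4.75% of genes in astrocytes and 11.7% in neurons, and DESeq2 called 0. Tyrobp, at 0.18 to 0.81 CPM in neurons, is named there after its values were seen. The share of all genes that passed by edgeR was 0% for 5xFAD in every one of these classes, and for Cnp loss 0.788% in mature oligodendrocytes, 0.0681% in endothelial cells, 0.0185% in neurons and 0% in precursor cells and astrocytes.

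Bin1 in mature oligodendrocytes, where it is highest and where Cnp is lost, ranged from 1049 to 1371 CPM over the 8 libraries. Its fold change was 0.10 for Cnp loss (interval -0.19 to 0.39, adjusted p = 0.814) and -0.05 for 5xFAD (-0.34 to 0.24). Picalm there gave -0.0054 (-0.24 to 0.23) and Cd2ap -0.08 (-0.38 to 0.22) for Cnp loss. In endothelial cells, where Cd2ap is highest, Cd2ap gave 0.10 for Cnp loss (-0.13 to 0.34) and -0.07 for 5xFAD (-0.31 to 0.17). In neurons Bin1, Picalm and Cd2ap had fold changes between -0.06 and 0.05 for both effects, and their intervals lay between -0.20 and 0.26.

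The largest values among genes of at least 20 CPM were both of Bin1 at low level. In astrocytes it was 24.7 and 31.9 CPM in WT, 6.55 and 12.4 CPM in Cnp-/-, 27.4 and 25.1 CPM in 5xFAD, and 53.1 and 25.5 CPM in Cnp-/- 5xFAD. The Cnp-/- libraries were lowest, and those of the other genotypes overlapped. Both 5xFAD libraries lay between the WT libraries, so the 5xFAD value rests on the libraries with the null allele. The markers of mature oligodendrocytes summed to 60.8 to 255 CPM in astrocytes, and their part was not tested. The 5xFAD fold change was 0.94 (interval 0.21 to 1.67, unadjusted p = 0.0187, adjusted p = 0.981). It ran from 0.64 without the first Cnp-/- 5xFAD library to 1.22 without the second Cnp-/- library. In endothelial cells Bin1 for Cnp loss gave -0.59 (interval -1.24 to 0.06, adjusted p = 0.694), and -0.094 without the first WT library.

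**Figure D4:**
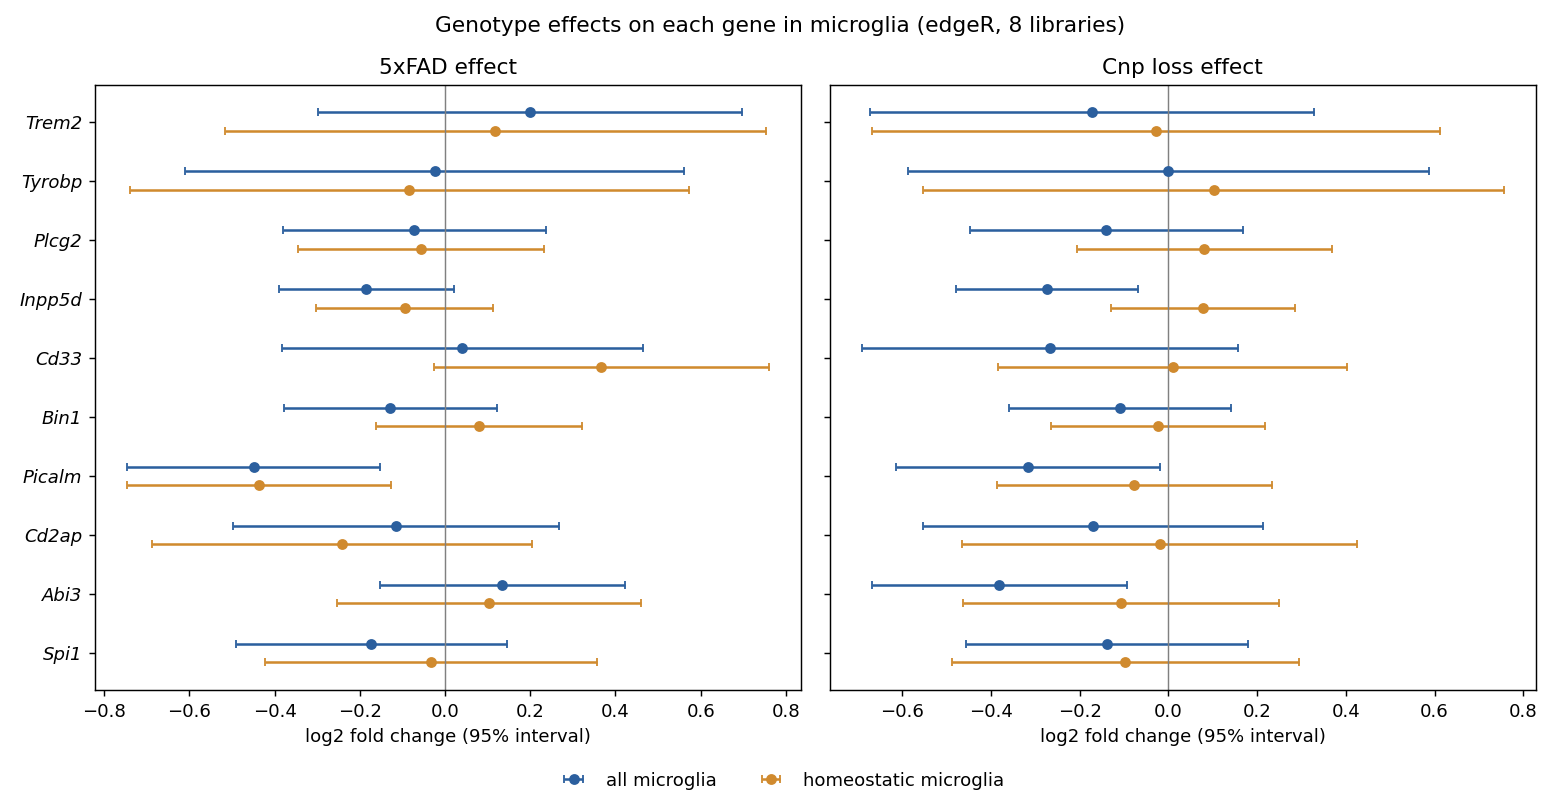
Fitted log2 fold changes with 95% intervals of the 10 genes for the 5xFAD effect and the Cnp loss effect in all microglia and in homeostatic microglia, with a line at 0. Picalm is the gene whose 5xFAD interval lies below 0 in both sets, Inpp5d, Picalm and Abi3 lie below 0 for Cnp loss in all microglia, and none of the Cnp loss intervals excludes 0 in homeostatic microglia.

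The genes around these pathways were read from 5 lists named by function. In TREM2-TYROBP signalling, which holds the kinases, adaptors and proteases that act with the receptor, 31 of 32 genes were tested in all microglia and 0 passed for either effect in edgeR, with 2 at an unadjusted p under 0.05 for 5xFAD and 4 for Cnp loss, shares no higher than the 10.2% and 13.1% over all genes. The median fold change of the list was -0.05 for 5xFAD and 0.04 for Cnp loss, against 0.05 and 0.02 over all genes. DESeq2 called 1 of them for 5xFAD, the inhibitory receptor gene Cd300lf, named after its values were seen, and 0 for Cnp loss. For 5xFAD none of the 5 lists had a gene past the threshold in edgeR in any class tested, and in all microglia DESeq2 called Mitf and Apoe beside Cd300lf. For Cnp loss DESeq2 also called Mag, Mef2c, Abca1 and Plekha1 in all microglia and Sorl1, Adamts1, Snap91 and Sh3gl3 in mature oligodendrocytes, where it called 5.84% of all genes. None of these passed in edgeR in the same class. In neurons DESeq2 called Blnk, Bhlhe41, Apoe and Clu for 5xFAD, among 2.46% of all genes, and Vav3 and Mef2c for Cnp loss, among 0.82%. In Cnp-/- 5xFAD against 5xFAD in all microglia it called Apoe, with a fold change of 1.22 in edgeR (adjusted p = 0.805). These genes are named after their values were seen.

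For Cnp loss in all microglia, 1 of 14 tested genes passed among the partners of SPI1 and other microglial transcription factors, beside 1.55% of all genes. It was Mitf, a regulator of lysosomal genes, at 479 and 408 CPM in WT, 887 and 844 CPM in Cnp-/-, 800 and 746 CPM in 5xFAD, and 1022 and 934 CPM in Cnp-/- 5xFAD. WT was lowest and the null libraries were highest, with a fold change of 0.67 (SE 0.105, adjusted p = 0.0153). Without MyTE it was 0.77 (adjusted p = 0.0207). The call was lost with equal nuclei per library, at 0.36 (adjusted p = 0.442), and in homeostatic microglia, at 0.40 (adjusted p = 0.552). Leaving out the libraries in turn kept the call in 3 of 8 fits (without the second library of WT, Cnp-/- or Cnp-/- 5xFAD), with adjusted p from 0.0191 to 0.0741 and fold changes from 0.62 to 0.78.

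Of the sialic acid binding receptors related to Cd33, 2 of 7 were tested and 1 fell, where 1.55% of all genes passed. The other, the myelin gene Mag, had a fold change of 0.84 for Cnp loss in all microglia (SE 0.178, adjusted p = 0.0508), beside the oligodendrocyte marker sum given above, which holds Mag. DESeq2 called both. Siglech, a receptor of resting microglia that signals through TYROBP, was 1057 and 1382 CPM in WT, 502 and 711 CPM in Cnp-/-, 789 and 703 CPM in 5xFAD, and 478 and 591 CPM in Cnp-/- 5xFAD. WT was highest. The fold change for Cnp loss was -0.72 (SE 0.140, adjusted p = 0.0385), -0.64 without MyTE (adjusted p = 0.104) and -0.30 in homeostatic microglia (adjusted p = 0.875), so the call was lost without MyTE and in homeostatic microglia. With equal nuclei per library the call was kept, at -0.95 (adjusted p = 0.039). It was kept without 1 of the 8 libraries in turn (the second Cnp-/- library) and lost without each other one, with adjusted p up to 0.146 and fold changes from -0.82 to -0.59.

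Among 30 tested genes of clathrin endocytosis, the machinery that Picalm and Bin1 belong to, 1 rose for Cnp loss, where 1.55% of all genes passed. Epn2, an adaptor of clathrin coats, was 45.1 and 56.6 CPM in WT, 165 and 111 CPM in Cnp-/-, 57.6 and 67.4 CPM in 5xFAD, and 114 and 120 CPM in Cnp-/- 5xFAD, with a fold change of 1.24 (adjusted p = 0.0439). It stood at 0 to 16.2 CPM in homeostatic microglia and was not tested there or without MyTE. The oligodendrocyte marker sum given above moved with it, and its part was not tested. The call was kept without the second Cnp-/- library and lost without each other one (adjusted p up to 0.193), and with equal nuclei per library the fold change was 1.58 (adjusted p = 0.233). Among other AD risk loci 1 of 27 tested genes rose, beside the same 1.55% of all genes. It was Apoe, a lipid carrier gene that DAM are known to express. Apoe was 107 and 136 CPM in WT, 429 and 361 CPM in Cnp-/-, 239 and 281 CPM in 5xFAD, and 428 and 774 CPM in Cnp-/- 5xFAD. The null libraries were all above the others, with a fold change of 1.52 (SE 0.220, adjusted p = 0.0118), of 1.73 without MyTE (adjusted p = 0.0947) and of 1.18 in homeostatic microglia (adjusted p = 0.659). The call was lost without the first WT library (adjusted p = 0.0854) and kept without each of the 7 others. With equal nuclei per library it was kept, at 1.31 (adjusted p = 0.013).

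In mature oligodendrocytes 1 of 21 tested genes of the other AD risk loci rose for Cnp loss, beside 0.788% of all 8761 genes that passed. Plekha1, which encodes a phosphoinositide-binding protein, was 455 and 426 CPM in WT and 479 and 457 CPM in 5xFAD, against 964 and 879 CPM in Cnp-/- and 710 and 837 CPM in Cnp-/- 5xFAD. The fold change was 0.97 (SE 0.0974, adjusted p = 0.0141). The call was kept in 4 of 8 fits that left out a library and lost without the second WT library, either 5xFAD library or the second Cnp-/- 5xFAD library (adjusted p up to 0.0746). Its fold change was 0.67 in all microglia (SE 0.143, adjusted p = 0.0538) and -0.03 in homeostatic microglia (SE 0.236).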

How the data were processed

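Processed data consisted of deposited UMI counts per gene and nucleus, with cell type, microglial subpopulation and library columns from the authors. Per the labels, reads were processed with Cell Ranger 6.1.2 against mm10. The authors further removed ambient RNA with CellBender and clustered nuclei with Seurat. Intron counting, strand and doublet removal are not given in the sources used here. CellBender subtracts counts, which lowers small values.

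UMIs were summed per library and class, and levels are counts per 1000000 UMIs (CPM) of each sum, over profiles of at least 20 nuclei. Members were tested in edgeR 4.0.16 (quasi-likelihood, robust, filterByExpr, TMM, a mean per genotype, two-sided) with Benjamini-Hochberg adjustment over all genes tested at 0.05, in R 4.3.3, with DESeq2 1.42.0 as an alternative. Gene positions came from GENCODE and promoters from RefSeq. Scripts were tested on simulated data. The 10 members are named in microglia and, elsewhere, from a mean of 20 CPM or a call. List genes are named where they passed, and the 3 nearest genes by correlation. The members and lists were chosen with earlier results of these data known. A gene fixed in the microglial marker list is not reported here, and marker sums leave it out.

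Depth ranged from 171830 to 1001449 UMIs per library in the microglial class of all nuclei. The tested genes held 85009 to 676958 UMIs per library in all microglia and 69347 to 221729 in homeostatic microglia. The second WT library was lowest in both, with 51 and 48 nuclei. Floors at 0 UMIs use 3 counts. Alternatives were another scaling, filter, test, a replicate block, left-out libraries, nuclei of at least 1000 UMIs, equal nuclei per library, the all-cell microglia label, no MyTE, and means over nuclei scaled to 10000 UMIs. Replicate numbers did not pair the samples over all genes tested in all microglia.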

Additional observations from a re-analysis of the deposited data

How the results depend on the processing

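The count of the 10 genes past the threshold was 0 in all but 1 of 240 alternatives over 18 comparisons. The exception was DESeq2 for 5xFAD in all microglia, which called 1 gene, Picalm. With the replicate block the count was 0 in every comparison, and over all genes the block called 33 for 5xFAD and 93 for Cnp loss in all microglia, against 35 and 127 without it. Over all genes tested, same-numbered libraries deviated with a correlation from -0.034 to 0.082 there, so the numbers did not pair them genome-wide. Among the members, Trem2, Tyrobp, Cd33 and Abi3 were higher in the second library than in the first in every genotype. The other members were mixed, and the share of all genes that agreed in this way was not counted. The second library was also the shallower one of each genotype in all microglia, and its part in these values was not tested. In 8 of the 10 genes microglia were the highest class under every alternative.

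Of 479 alternatives of 32 fold changes of single members, 37 changed sign, all of them uncalled. Equal nuclei per library gave -0.12 for Trem2, 0.16 for Tyrobp, 0.046 for Bin1, 0.055 for Cd2ap and 0.0049 for Spi1 for 5xFAD in all microglia, 0.28 for Trem2 for Cnp loss and 0.41 for Trem2 in Cnp-/- 5xFAD against 5xFAD. No filter gave 0.048 for Tyrobp and 0.0032 for Plcg2 for 5xFAD and 0.0083 for Tyrobp for Cnp loss. The all-cell label gave 0.087 for Plcg2 and 0.014 for Bin1 for 5xFAD, nuclei of at least 1000 UMIs gave 0.046 for Tyrobp for 5xFAD, and leaving out MyTE gave 0.12 for Tyrobp for Cnp loss. The cause was not tested.

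Leaving out each library in turn also changed signs. For 5xFAD in all microglia the fold changes ran from -0.19 to 0.14 for Tyrobp, from -0.16 to 0.052 for Plcg2, from -0.077 to 0.17 for Cd33, from -0.21 to 0.037 for Bin1 and from -0.25 to 0.058 for Cd2ap. For Cnp loss they ran from -0.18 to 0.17 for Tyrobp, from -0.20 to 0.050 for Bin1, from -0.31 to 0.0048 for Cd2ap and from -0.22 to 0.025 for Spi1. In Cnp-/- 5xFAD against 5xFAD they ran from -0.43 to 0.14 for Trem2 and from -0.37 to 0.29 for Tyrobp.

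The number of genes called moved more than the members did. For 5xFAD in all microglia it ran from 20 to 235 and for Cnp loss from 22 to 358, the highest without a filter (235 and 358), where the median over all genes was 0.26 and 0.12. DESeq2 called 126 and 237. In mature oligodendrocytes Cnp loss ran from 2 to 544 and in neurons 5xFAD from 0 to 501. With 2 libraries per genotype and 13 to 73 UMIs of Tyrobp per library, intervals of Trem2 and Tyrobp span about 1 log2 unit in all microglia.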
